A study of Mus musculus with 17 samples.

Results

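The genes described here are 36 mouse genes that mark T cells and B cells, measured by bulk RNA-seq of isolated pancreatic islets. They were chosen by name: 17 mark T cells, 15 mark B cells, and 4 (*Ltb*, *Cd37*, *Cd52* and *Ptprc*) are shared by lymphocytes or by leukocytes in general. Gene identifiers were matched to symbols, and all 36 were found in both deposited tables, among 78239 identifiers in the first and 73212 in the second. All 17 mice were male. The first table holds 12 mice, 3 in each of 4 groups. Wildtype animals and their homozygous *Pax4* R192H littermates on a C57BL6/N background were compared at 12 weeks of age on a standard chow diet (SCD) and at 16 weeks of age after 4 weeks of a high-fat diet (HFD). The name *Pax4* R192H follows the human numbering, and the change knocked into the mouse gene is R200H. Diet and age changed together, so their parts in a difference between SCD and HFD cannot be told apart. The second table holds 2 control and 3 *Pax4* βiKO mice at 20 weeks of age after 8 weeks of HFD. All 5 were *Pax4* floxed/floxed and were given tamoxifen when 7 to 9 weeks old, and only the *Pax4* βiKO mice carried Pdx1-CreERT2, a tamoxifen-inducible Cre under the *Pdx1* promoter, which is active in the β cells and in some other cells of the adult pancreas. The Cre was absent from the controls, so deletion of *Pax4* and presence of the transgene cannot be told apart. The labels number the libraries as biological replicates and do not say whether animals were pooled or which shared a litter or a day of isolation. Each library is called a mouse below.

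T cells recognise peptide antigens through the T-cell receptor, whose constant chains (*Trac*, *Trbc2*) signal through the CD3 complex (*Cd3e*, *Cd3d*, *Cd3g*, *Cd247*) and the kinases Lck and Zap70, with CD4 or CD8 as co-receptor. B cells carry an immunoglobulin (*Ighm*, *Ighd*, with a light chain from *Igkc* or *Iglc2*) on their surface, which signals through Cd79a and Cd79b, and mature naive cells add *Ms4a1* (CD20), *Cd22*, *Fcer2a* (CD23), *Cr2* (CD21) and the follicle-homing receptor *Cxcr5*. Healthy islets hold few lymphocytes, and pancreatic lymph nodes and fat lie close to the exocrine tissue from which islets are separated. In bulk RNA, fewer cells of a type and less RNA per cell cannot be told apart.

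Promoter windows of RefSeq transcripts (GRCm38.p6, 250 bases before and 50 after the start) were available for 19 of the 36 genes, 25 windows in all, counting alternative starts. The E-box CAGGTG, the site bound by E proteins such as the lymphoid factor E2A, was present on either strand in 17 of these 25 windows (68.0%), against 20.2% of all 32851 windows, and in 15 of the 19 genes (78.9%), against 22.6% of all genes with a window. Another 12 motifs were searched on both strands. They were AGGAAG for ETS factors, ATTTGCAT for the octamer, GAGGAAGT for PU.1 (which overlaps the ETS motif), CAGCTG as a further E-box, AGATAA for factors of the GATA family, TATAAA for the basal promoter box, GGGCGG for Sp factors, TGTGGT for RUNX factors, CTTTGA for TCF factors, and the longer EBF, IRF and NF-kB motifs. AGGAAG was in 68.0% of the members' windows against 35.4% of all, GGGCGG in 24.0% against 35.7%, and the octamer in none against 1.74%. The remaining 9 were in 0 to 4 of the 25 windows. CAGGTG was singled out after these shares were seen, and a match of letters is a description, not evidence of binding. The windows of 4 B-cell and shared genes are shown so that the common motif can be read in place; *Cr2*, *Bank1* and *Cd37* separated the SCD groups described below, and *Cd22*, an inhibitory partner of the B-cell receptor, overlapped between them. Capitals mark the E-box, which each of the 4 holds once, as the reverse complement CACCTG. All 4 genes lie on the minus strand and the windows read 5′ to 3′ along the gene: *Cr2* at chr1:195176670-195176969, *Bank1* at chr3:136326017-136326316, *Cd22* at chr7:30878979-30879278 and *Cd37* at chr7:45238790-45239089. The genes without a window were *Cd4*, *Cd8b1*, *Cd2*, *Cd6*, *Trac*, *Trbc2*, *Cd28*, *Ccr7*, *Cd79b*, *Ms4a1*, *Blk*, *Ighm*, *Ighd*, *Igkc*, *Iglc2*, *Cxcr5* and *Cd52*.
Cr2: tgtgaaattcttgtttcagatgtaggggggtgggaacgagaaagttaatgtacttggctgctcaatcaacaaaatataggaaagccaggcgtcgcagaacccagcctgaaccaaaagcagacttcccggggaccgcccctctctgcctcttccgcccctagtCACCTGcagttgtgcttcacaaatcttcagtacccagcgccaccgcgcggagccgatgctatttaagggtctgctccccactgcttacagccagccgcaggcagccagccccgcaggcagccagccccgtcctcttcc
Bank1: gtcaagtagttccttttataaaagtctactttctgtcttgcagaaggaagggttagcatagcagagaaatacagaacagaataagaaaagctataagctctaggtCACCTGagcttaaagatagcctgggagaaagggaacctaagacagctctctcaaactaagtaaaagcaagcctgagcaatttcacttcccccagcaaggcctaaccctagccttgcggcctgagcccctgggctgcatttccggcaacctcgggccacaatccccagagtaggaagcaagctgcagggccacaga
Cd22: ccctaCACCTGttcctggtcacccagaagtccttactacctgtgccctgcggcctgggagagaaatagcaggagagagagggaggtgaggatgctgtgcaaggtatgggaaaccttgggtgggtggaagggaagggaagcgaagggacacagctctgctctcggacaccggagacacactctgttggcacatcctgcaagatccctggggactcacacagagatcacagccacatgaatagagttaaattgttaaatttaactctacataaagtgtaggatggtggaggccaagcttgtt
Cd37: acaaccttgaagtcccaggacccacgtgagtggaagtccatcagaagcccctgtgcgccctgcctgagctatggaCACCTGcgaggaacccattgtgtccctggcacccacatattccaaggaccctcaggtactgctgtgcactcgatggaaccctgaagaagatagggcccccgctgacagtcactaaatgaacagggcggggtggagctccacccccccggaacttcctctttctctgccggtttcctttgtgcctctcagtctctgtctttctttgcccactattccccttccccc
The motif begins 88 bases before the start in *Cr2*, 145 in *Bank1*, 245 in *Cd22* and 175 in *Cd37*.

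Total counts per mouse were 24268200 to 42679600 in the first table and 28618800 to 31887500 in the second. Values below are in CPM, counts scaled by the TMM-normalized library size, each table normalized on its own, so that levels are compared only within a table. Within a group, values are listed in the order of the replicate number. A gene with 3 counts in a mouse stood at 0.0724 to 0.126 CPM in the first table and 0.0907 to 0.112 in the second, and lower values rest on 1 or 2 reads or on fractions of reads. The islet hormone genes were abundant in every mouse, *Ins2* between 14522 and 69229 CPM and *Gcg* between 3857 and 14168. *Pax4* itself was listed at 0 in all 17 mice, so it could not serve as a check of the genotype labels. Acinar genes, 25 genes of the exocrine pancreas that encode mostly digestive enzymes and secreted proteins, summed to 15350 to 30130 CPM in SCD-fed wildtype, 15584 to 21926 in SCD-fed *Pax4* R192H, 18698 to 29451 in HFD-fed wildtype and 43400 to 113418 in HFD-fed *Pax4* R192H mice. Each whole table was tested with edgeR's quasi-likelihood test, and a gene was called where the Benjamini-Hochberg adjusted p was under 0.05 with a log2 fold change beyond 0.5 in either direction. Where the lower group held 1 to 3 reads in all, the fitted fold change depends on the prior count that edgeR adds. For the genes of this kind that are given a fold change below, the ratio of pooled counts stands beside it with a 95% interval for counting error only. Of the 36 genes, 22 passed the filter on low counts in the first table (6 T-cell, 12 B-cell, 4 shared) and 24 in the second (9, 11 and 4). Only 3 of the 22 and 8 of the 24 were above the filter's cutoff in every mouse, and 1 and 3 passed through a single group in which they were high. In the first table *Ms4a1*, *Ltb*, *Cd2*, *Ighd*, *Iglc2*, *Cxcr5*, *Cd37* and *Bank1* were above it only in SCD-fed wildtype mice and HFD-fed *Pax4* R192H replicate 1. The tested genes are thus not a neutral sample of the 36, above all for comparisons with the SCD-fed wildtype group.

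In the first table the summed level of the B-cell genes was highest in the 3 SCD-fed wildtype mice and in 1 other mouse, HFD-fed *Pax4* R192H replicate 1. The 15 B-cell genes summed to 50.9, 21.5 and 117 CPM in the SCD-fed wildtype and 12.5, 1.82 and 2.40 in the SCD-fed *Pax4* R192H group. On HFD the sums were 3.25, 1.84 and 5.70 CPM in wildtype and 39.7, 2.14 and 2.99 CPM in *Pax4* R192H mice. The SCD groups did not overlap, and on HFD the first *Pax4* R192H mouse stood apart from the other 5. The 17 T-cell genes summed to 4.79, 3.12 and 7.32 CPM against 1.58, 1.44 and 1.18 CPM on SCD and 1.48, 1.14 and 2.09 CPM against 2.77, 1.01 and 0.709 CPM on HFD. Of the 36 genes, 30, 25 and 34 reached 3 counts in the SCD-fed wildtype mice, 15, 14 and 13 in the SCD-fed *Pax4* R192H mice, 19, 14 and 21 in wildtype mice on HFD and 31, 10 and 10 in *Pax4* R192H mice on HFD. Per kilobase of exon, *Ighm* was the highest of the 36 in SCD-fed wildtype mice, at a group mean of 15.2 CPM per kb, followed by *Igkc* at 9.79 and *Cd52* at 3.14. These means rest on wildtype replicate 3, without which they were 6.69, 1.37 and 2.35 CPM per kb, with *Igkc* below *Cd79b* and *Cd52*.

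**Figure D1:**
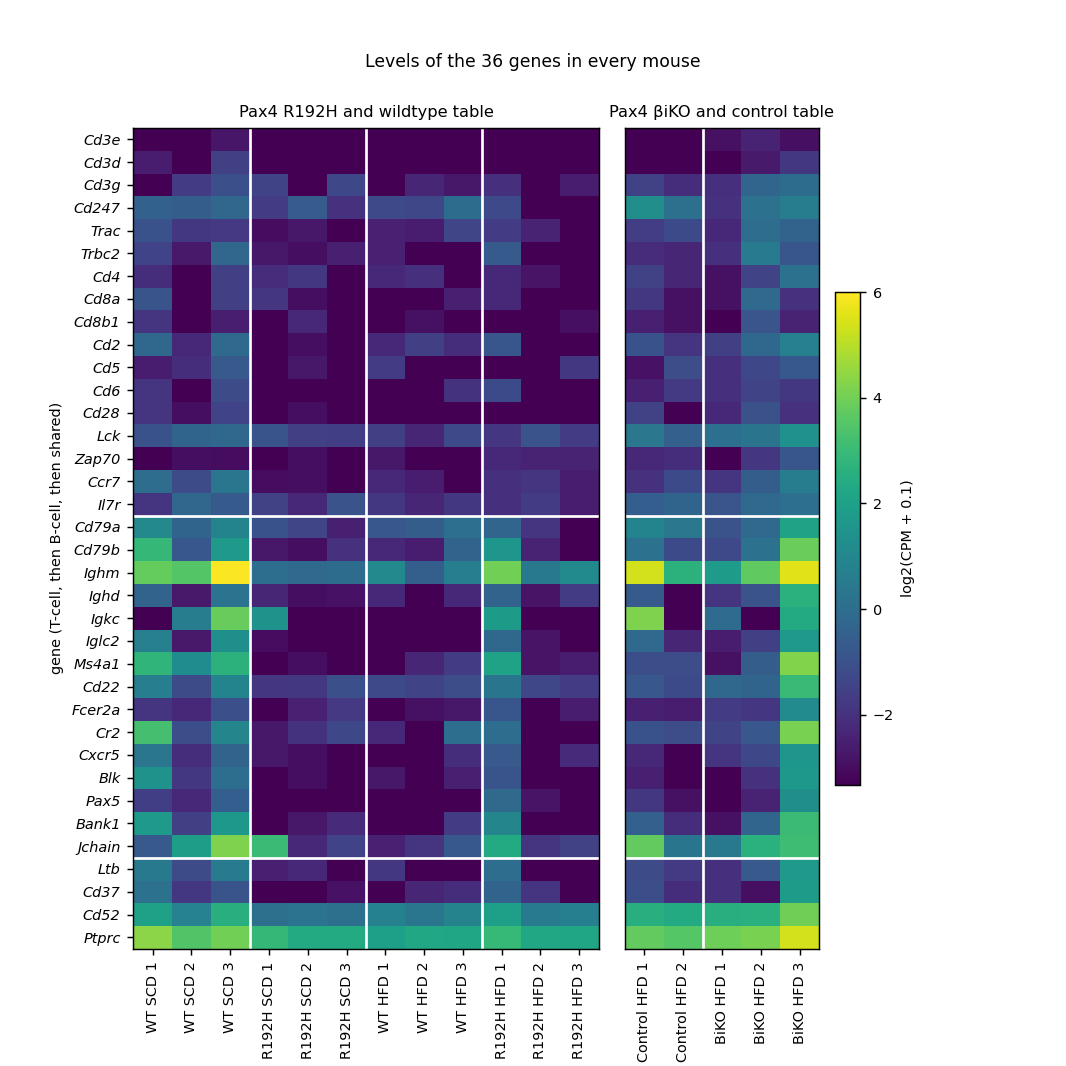
Level of each of the 36 genes (rows) in each mouse (columns) as log2(CPM + 0.1), with the 2 tables normalized separately and white lines between groups and between T-cell, B-cell and shared genes. High B-cell values are seen in SCD-fed wildtype mice, HFD-fed *Pax4* R192H replicate 1 and *Pax4* βiKO replicate 3, and high *Ighm*, *Igkc* and *Jchain* in control replicate 1; *Ighm* and *Ptprc* are above 0.6 CPM in every mouse.

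**Figure D2:**
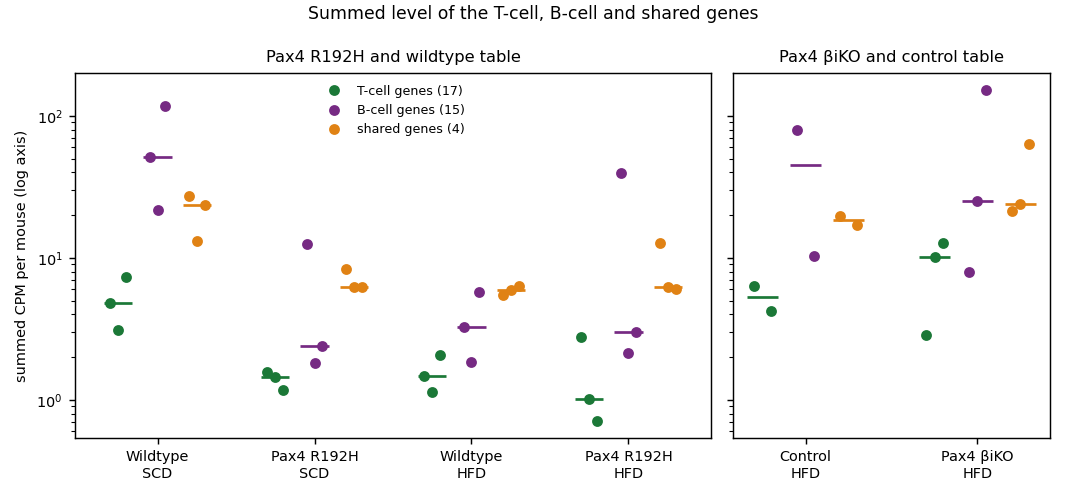
Summed CPM of the 17 T-cell, 15 B-cell and 4 shared genes in each mouse (points, log axis) with the group median (line). B-cell sums of SCD-fed wildtype mice (21.5 to 117 CPM) lie above those of all SCD-fed *Pax4* R192H mice (1.82 to 12.5 CPM).

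The first comparison asked how the *Pax4* R192H genotype differs from wildtype on SCD. Of the 36 genes, 20 were lower in every *Pax4* R192H mouse than in every wildtype mouse and none was higher in every one: 6 of 17 T-cell genes, 10 of 15 B-cell genes and 4 of 4 shared genes. Over the 28344 genes with at least 10 counts in the table, 4.06% were separated in that direction. No member was called by edgeR, which called none of the 19137 tested genes as lower (0%). At an unadjusted p below 0.05, 16 of the 22 tested members were lower and none higher, against 2.19% of all tested genes lower at that p. DESeq2 called 3 of the 36 lower, *Ms4a1*, *Ptprc* and *Ighm* (adjusted p = 0.0223, 3.28e-04 and 6.54e-04), against 0.0452% of all genes, and gave an adjusted p for 27 of them. The median log2 fold change of the 22 tested members was -3.59, with -4.46 for B-cell, -1.06 for T-cell and -2.85 for shared genes, against -0.0038 for all tested genes. Several of the 22 were above the filter's cutoff in no SCD-fed *Pax4* R192H mouse. This median and the count at an unadjusted p therefore come from a selected set.

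Among the B-cell receptor genes, *Ighm*, the μ heavy chain of IgM, stood at 13.8, 11.4 and 61.0 CPM in the SCD-fed wildtype group against 0.941, 0.816 and 0.878 CPM in the *Pax4* R192H group on the same diet. Its gene (ENSMUSG00000076617, chr12:113418558-113422730, minus strand, GRCm38) is an immunoglobulin constant-region gene. The groups did not overlap, although the wildtype mice differed among themselves by several-fold (log2 fold change -5.03 ± 0.95 (SE), adjusted p = 0.384, edgeR; -3.81 without wildtype replicate 3). *Cd79b*, the β signalling chain of the receptor, was at 7.28, 0.483 and 3.16 CPM against 0.0508, 0.0263 and 0.153 CPM (log2 fold change -5.62 ± 1.61 (SE), adjusted p = 1, edgeR). Its partner *Cd79a* was at 1.99, 0.697 and 1.74 CPM against 0.407, 0.290 and 0.0763 CPM (log2 fold change -2.46 ± 0.90 (SE), adjusted p = 1, edgeR). *Cd79b* varied more between wildtype mice than *Cd79a*, and wildtype replicate 2 was the lowest of the 3 in both. The light-chain gene *Iglc2* was at 1.55, 0.0536 and 2.39 CPM against 0.0254, 0 and 0 CPM (log2 fold change -6.66, unadjusted p = 0.00431, adjusted p = 1, edgeR), a ratio of pooled counts of 140.4-fold (95% counting interval 24.8 to 5583). *Iglc2* shares reads with near-identical λ constant genes, which makes its own share uncertain. *Igkc*, the κ light chain, was listed at 0, 1.45 and 14.2 CPM in the wildtype and 2.69, 0 and 0 CPM in the *Pax4* R192H mice, so its groups overlapped, and it was listed at 0 in wildtype replicate 1 although *Ighm* was high there. *Ighd*, the IgD heavy chain, was at 0.674, 0.0536 and 1.09 CPM against 0.102, 0.0263 and 0.0382 CPM, with 1 wildtype mouse inside the range of the *Pax4* R192H mice.

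Of the surface co-receptors and markers of mature B cells, 3 were separated and 2 overlapped, and edgeR called none. *Ms4a1*, which encodes CD20 (ENSMUSG00000024673, chr19:11249675-11266241, minus strand, GRCm38), was at 6.70, 2.23 and 6.25 CPM in wildtype and 0, 0.0263 and 0 CPM in *Pax4* R192H mice, a single read in all 3 together (log2 fold change -8.57 ± 1.79 (SE), adjusted p = 0.560, edgeR). The pooled counts differed by 517-fold (95% counting interval 92.3 to 20446). *Cr2*, the complement receptor CD21, was at 9.47, 0.375 and 1.81 CPM against 0.0508, 0.158 and 0.305 CPM (log2 fold change -4.54, adjusted p = 1, edgeR). *Cxcr5*, the receptor for the follicular chemokine CXCL13, was at 1.18, 0.134 and 0.676 CPM against 0.0508, 0.0263 and 0 CPM. Wildtype replicate 2 was the lowest wildtype mouse for each of these 3 genes and still above every *Pax4* R192H mouse. *Cd22*, an inhibitory co-receptor, overlapped by a small margin, at 1.48, 0.349 and 1.74 CPM against 0.178, 0.184 and 0.382 CPM. *Fcer2a*, the low-affinity IgE receptor, was at or under 0.4 CPM in all 6 mice and overlapped.

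All 3 B-cell signalling and transcription genes were separated. *Bank1*, an adaptor of B-cell receptor signalling, was at 3.10, 0.241 and 3.07 CPM against 0, 0.0526 and 0.115 CPM (log2 fold change -5.30 ± 1.76 (SE), adjusted p = 1, edgeR). *Blk*, a B-cell Src-family kinase, was at 2.70, 0.188 and 0.931 CPM against 0, 0.0263 and 0 CPM and did not pass the filter. *Pax5*, the transcription factor that keeps B-cell identity, was at 0.236, 0.107 and 0.582 CPM in the wildtype mice and at 0 in all 3 *Pax4* R192H mice, at least 11.2-fold higher in wildtype when the *Pax4* R192H group is set to 3 counts over the group. *Jchain*, which joins secreted IgM and IgA, broke the pattern, at 0.505, 3.67 and 18.2 CPM against 7.98, 0.105 and 0.267 CPM. Here *Pax4* R192H replicate 1 was above 2 of the 3 wildtype mice.

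The T-cell genes were low throughout. *Cd3e*, the gene most often used to define T cells, had 2 reads in wildtype replicate 3 and none in the other 11 mice of the first table, and *Cd3d* had reads only in SCD-fed wildtype replicates 1 and 3. *Cd247*, the ζ chain of the receptor complex, which NK cells also express, was at 0.647, 0.573 and 0.740 CPM against 0.207, 0.548 and 0.153 CPM on SCD (log2 fold change -1.08, adjusted p = 1, edgeR). Its groups did not overlap, but the highest *Pax4* R192H mouse came within 0.0243 CPM of the lowest wildtype mouse. *Cd2*, an adhesion molecule of T and NK cells, was at 0.775, 0.107 and 0.821 CPM against 0, 0.0263 and 0 CPM (log2 fold change -5.43, adjusted p = 1, edgeR), a ratio of pooled counts of 58.3-fold (95% counting interval 10.1 to 2338). *Ccr7*, the receptor that guides naive T and B cells into lymph nodes, was at 0.910, 0.349 and 1.16 CPM against 0.0254, 0.0263 and 0 CPM (log2 fold change -5.16 ± 1.06 (SE), adjusted p = 0.540, edgeR). *Ccr7* had 2 reads over the 3 *Pax4* R192H mice against 88 over the wildtype mice, a ratio of 42.0-fold (95% counting interval 11.3 to 352). *Trac*, *Cd5* and *Cd28* were also separated, at no more than 0.6 CPM in any of the 6 mice and without passing the filter. *Lck* was at 0.404, 0.697 and 0.772 CPM against 0.432, 0.237 and 0.229 CPM, *Il7r* at 0.168, 0.751 and 0.531 CPM against 0.254, 0.105 and 0.420 CPM and *Cd4* at 0.135, 0 and 0.241 CPM against 0.127, 0.184 and 0 CPM. These 3 overlapped, as did *Cd3g*, *Cd3e*, *Cd3d*, *Cd8a*, *Cd8b1*, *Cd6*, *Zap70* and *Trbc2*.

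Of the shared genes, *Ptprc* (ENSMUSG00000026395, chr1:138062861-138175708, minus strand, GRCm38) encodes CD45, found on all leukocytes. It stood at 20.8, 10.9 and 16.1 CPM in wildtype mice, or 15.9 ± 4.97 CPM (SD, n = 3), and at 7.27, 5.08 and 5.15 CPM in *Pax4* R192H mice, or 5.83 ± 1.24 CPM (SD, n = 3). This was the smallest fold change among the 4 shared genes with the smallest error (log2 fold change -1.45 ± 0.26 (SE), adjusted p = 0.355, edgeR). *Cd52*, a small surface glycoprotein of lymphocytes and some myeloid cells, was at 3.91, 1.66 and 5.60 CPM against 0.991, 1.08 and 0.992 CPM (log2 fold change -1.86 ± 0.46 (SE), adjusted p = 0.791, edgeR). *Ltb*, the lymphotoxin chain of activated and resting lymphocytes, was at 1.28, 0.349 and 1.30 CPM against 0.0763, 0.105 and 0 CPM. *Cd37*, a tetraspanin of mature B cells, was at 1.01, 0.188 and 0.435 CPM against 0, 0 and 0.0382 CPM. All 4 genes kept the order, with wildtype replicate 2 again the lowest wildtype mouse.

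Other lymphocyte genes and other leukocyte genes were read beside these. Of 27 further B-cell genes, 15 were lower in every SCD-fed *Pax4* R192H mouse than in every wildtype mouse, as were 7 of 28 further T-cell genes, against 4.06% of detected genes, and none of either list was called. *Trbc1*, the other β constant chain of the T-cell receptor, which shares reads with *Trbc2*, was at 0.404, 0.0268 and 0.760 CPM in wildtype against 0 in all 3 *Pax4* R192H mice. The 14 macrophage genes were lower in sum as well, at 153, 114 and 118 CPM against 79.5, 77.6 and 83.8 CPM, and 4 of them were separated, against 4.06% of detected genes. Among them *Lyz2*, lysozyme of myeloid cells, was at 61.3, 27.5 and 33.8 CPM against 10.8, 9.82 and 13.9 CPM, and *Adgre1* (F4/80) was at 5.90, 6.52 and 4.39 CPM against 3.61, 4.74 and 5.50 CPM, which overlapped. The part of macrophages in the *Ptprc* and *Cd52* values was not tested. The 13 genes of lymph-node stroma and high endothelial venules summed to 24.1, 46.1 and 27.7 CPM against 22.3, 23.3 and 41.7 CPM and overlapped. By group mean most of this sum was 1 gene, *Prox1*, at 21.2 CPM in wildtype (10.6 to 33.6) and 24.7 CPM in *Pax4* R192H mice (18.6 to 36.7). The overlap of the sums therefore says little about the other genes of the list. Within that list *Cxcl13*, the chemokine that draws B cells into follicles, was at 0.270, 2.28 and 2.20 CPM in wildtype and listed at 0 in all 3 *Pax4* R192H mice, and *Ccl21a*, a chemokine of the T-cell zone, was at 0.135, 0.804 and 1.01 CPM against 0, 0.326 and 0.153 CPM. The part of lymph-node tissue in the lymphocyte values was not tested.

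The same genotype comparison was made on HFD. Here 1 of the 36 genes was separated in the higher direction, *Zap70*, a T-cell receptor kinase, with 3, 2 and 3 reads in *Pax4* R192H against 2, 0 and 0 in wildtype mice, and none in the lower direction. The separation of *Zap70* rests on the TMM factors. Wildtype replicate 1 and *Pax4* R192H replicate 2 both had 2 reads, in total counts of 33936800 and 34295100, and their TMM factors were 1.11 and 0.695. Of all detected genes, 10.2% were separated as higher. edgeR called no member and 1.46% of the tested genes as higher. At an unadjusted p below 0.05, 3 of the 22 tested members were higher (*Ms4a1*, *Ighm* and *Iglc2*), with adjusted p = 0.183, 0.212 and 0.208, against 8.91% of all tested genes higher at that p. DESeq2 called *Igkc* alone, against 1.55% of all genes. *Igkc* was listed at 3.31, 0 and 0 CPM in *Pax4* R192H and at 0 in all 3 wildtype mice, so the difference came from 1 mouse and is at least 38.6-fold when the wildtype group is set to 3 counts over the group.

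Most of the high values on HFD lay in *Pax4* R192H replicate 1, but *Cd79a* and *Cr2* were highest in wildtype replicate 3. *Cd79a* was at 0.716, 0.168 and 0 CPM in *Pax4* R192H and 0.480, 0.580 and 0.964 CPM in wildtype mice, and *Cr2* at 0.895, 0 and 0 CPM against 0.107, 0 and 0.938 CPM. *Ighm* was at 16.1, 1.26 and 2.07 CPM in *Pax4* R192H and 2.00, 0.614 and 1.48 CPM in wildtype mice. *Ms4a1* was at 4.01, 0.0420 and 0.0617 CPM against 0, 0.102 and 0.208 CPM, and *Cd79b* at 2.90, 0.0839 and 0 CPM against 0.107, 0.0682 and 0.677 CPM. For *Ighm*, *Ms4a1* and *Cd79b* replicate 1 was the highest of the 6 mice and no other mouse was above 2.1 CPM. *Bank1* was at 1.79, 0 and 0 CPM against 0, 0 and 0.208 CPM, *Iglc2* at 0.787, 0.0420 and 0 against 0, 0 and 0 CPM, and *Ltb* at 0.895, 0 and 0 against 0.187, 0 and 0 CPM. *Cxcr5* was at 0.501, 0 and 0.123 CPM against 0, 0 and 0.130 CPM and *Cd37* at 0.680, 0.168 and 0 CPM against 0, 0.102 and 0.130 CPM. Among the T-cell genes, *Trbc2* was at 0.528, 0 and 0 CPM against 0.0800, 0 and 0 CPM and *Cd6* at 0.322, 0 and 0 CPM against 0, 0 and 0.156 CPM, both again highest in replicate 1. *Cd2* was at 0.465, 0 and 0 CPM against 0.107, 0.239 and 0.130 CPM, *Ccr7* at 0.143, 0.168 and 0.0617 CPM against 0.107, 0.0682 and 0 CPM and *Cd247* at 0.312, 0 and 0 CPM against 0.312, 0.291 and 0.890 CPM. *Cd3e* and *Cd3d* had no read in any of the 6 mice. The median log2 fold change of the 22 tested members was 1.40, and -0.30 without replicate 1 (24 tested). That mouse also had the highest acinar sum of the 12, 113418 CPM against 43400 and 44439 CPM in the other *Pax4* R192H mice. With the acinar level as a covariate the median was -1.65. The part of exocrine tissue in these values was not tested further. *Cxcl13* was at 3.26, 0.126 and 0.308 CPM in the 3 *Pax4* R192H mice, again highest in replicate 1, and *Ccl21a* at 0.0358, 0 and 0 CPM.

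The interaction of genotype and diet compared both genotype differences directly. edgeR called none of the 22 tested members, against 0.0888% of all tested genes called in the positive direction. *Ighm* came closest (log2 fold change 7.25, adjusted p = 0.0504, and 5.31 without HFD-fed *Pax4* R192H replicate 1 and 6.08 without SCD-fed wildtype replicate 3), followed by *Ms4a1* (adjusted p = 0.0536, with no fold given because the SCD-fed *Pax4* R192H mice held 1 read in all) and *Ptprc* (1.82, adjusted p = 0.0652), all by edgeR. At an unadjusted p below 0.05, 15 of the 22 were positive and none negative, against 6.84% of all tested genes positive at that p. DESeq2 called 9 members, all positive, against 0.54% of all genes: *Ighm*, *Ptprc*, *Ms4a1*, *Igkc*, *Pax5*, *Cd52*, *Ccr7*, *Cd37* and *Iglc2*. For *Ptprc* the genotype groups were apart on SCD, as given above, while on HFD the *Pax4* R192H mice were at 7.41, 4.70 and 4.50 CPM and the wildtype mice at 3.71, 4.64 and 4.48 CPM. The median log2 interaction of the tested members was 5.40, and 1.69 without HFD-fed *Pax4* R192H replicate 1.

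**Figure D3:**
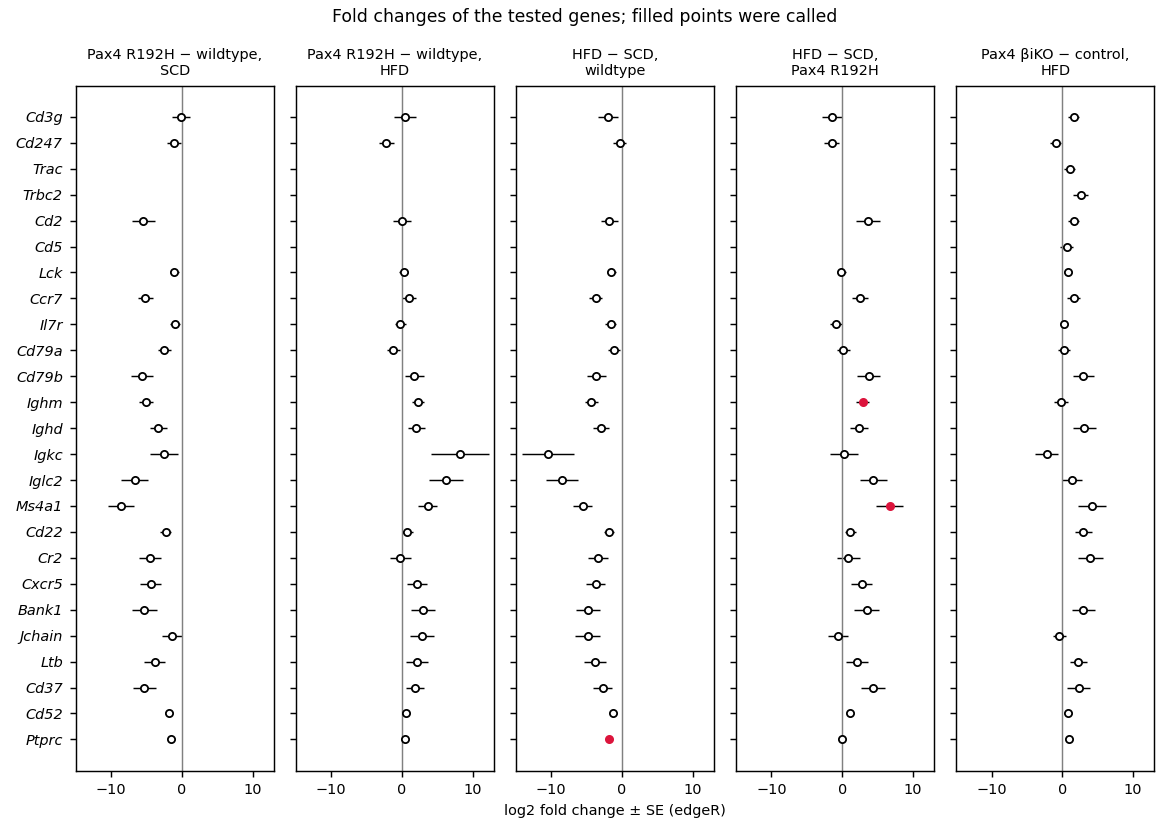
Log2 fold change with its SE (edgeR) of each tested gene in 5 comparisons, with called genes filled in red. The SCD genotype difference and the wildtype diet difference are negative for all 22 tested genes, and the called genes are *Ptprc* in the wildtype diet comparison and *Ighm* and *Ms4a1* in the *Pax4* R192H diet comparison.

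In wildtype mice the HFD group, which was also 4 weeks older, was set against the SCD group. Of the 36 genes, 15 were lower in every HFD-fed than in every SCD-fed wildtype mouse (3 T-cell, 9 B-cell and 3 shared) and none was higher, against 8.36% of detected genes separated as lower. edgeR called 1 of the 22 tested members lower, *Ptprc*, against 0.167% of the tested genes. *Ptprc* fell from 20.8, 10.9 and 16.1 CPM on SCD to 3.71, 4.64 and 4.48 CPM on HFD (log2 fold change -1.90 ± 0.26 (SE), adjusted p = 0.0112, edgeR), with no overlap. Leaving out HFD-fed wildtype replicate 3 raised its adjusted p to 0.0828 at a log2 fold change of -1.93, and fitting only the wildtype groups to 0.0584 at -1.90 (edgeR). DESeq2 called 4 members lower, *Ptprc*, *Ighm*, *Ccr7* and *Igkc*, against 0.911% of all genes. The median log2 fold change was -3.20.

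By role, *Ighm* was at 2.00, 0.614 and 1.48 CPM in the HFD-fed wildtype mice (log2 fold change -4.37 ± 0.91 (SE), adjusted p = 0.0600, edgeR) and *Ms4a1* at 0, 0.102 and 0.208 CPM (log2 fold change -5.55 ± 1.36 (SE), adjusted p = 0.0928, edgeR), both below all 3 SCD-fed wildtype mice. *Jchain* was at 0.0800, 0.171 and 0.495 CPM against 0.505, 3.67 and 18.2 CPM on SCD and did not overlap (log2 fold change -4.87, adjusted p = 0.207, edgeR). *Iglc2* was listed at 0 in all 3 HFD-fed wildtype mice, at least 47.6-fold lower with that group set to 3 counts in all, and *Pax5* likewise, at least 11.4-fold lower. *Bank1*, *Blk*, *Cxcr5*, *Fcer2a*, *Cd28*, *Ltb* and *Cd37* were also separated. *Lck*, the kinase that starts T-cell receptor signalling, was at 0.240, 0.102 and 0.313 CPM (log2 fold change -1.49, adjusted p = 0.277, edgeR), and *Ccr7* at 0.107, 0.0682 and 0 CPM. *Cr2* overlapped, because HFD-fed wildtype replicate 3 had 0.938 CPM. That mouse had the highest B-cell sum of its group. Of the other lists, 15 of 27 further B-cell genes and 7 of 28 further T-cell genes were separated as lower, as were 7 of 14 macrophage genes, against 8.36% of detected genes, and of these *Lyz2* was called (log2 fold change -2.23, adjusted p = 0.0112, edgeR). The macrophage sum was 87.3, 82.8 and 86.3 CPM on HFD, and its part in the *Ptprc* value was not tested.

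The same contrast of diets was made in *Pax4* R192H mice, where 1 HFD-fed mouse carried the high values. edgeR called 2 of the 22 tested members higher on HFD, *Ms4a1* (log2 fold change 6.69 ± 1.85 (SE), adjusted p = 0.0250) and *Ighm* (log2 fold change 2.88 ± 0.91 (SE), adjusted p = 0.0449), against 9.75% of all tested genes called higher, a share near that of the members. The 3 HFD-fed mice had 4.01, 0.0420 and 0.0617 CPM of *Ms4a1* and 16.1, 1.26 and 2.07 CPM of *Ighm*, and only replicate 1 was above 2.1 CPM in either. Without that mouse *Ms4a1* had 3 reads on HFD and 1 on SCD (adjusted p = 0.422, edgeR) and the log2 fold change of *Ighm* was 0.94 (adjusted p = 0.420, edgeR), and with the acinar covariate the log2 fold changes were 0.04 and -1.67. Blocking on the mouse's number also removed both calls at log2 fold changes of 6.03 and 2.44 (adjusted p = 0.0629 and 0.0776, edgeR). Leaving out any 1 SCD-fed *Pax4* R192H mouse did so too, at 6.20 and 6.37 for *Ms4a1* without replicates 1 and 3 and with no SCD read left without replicate 2 (adjusted p = 0.0773 to 0.0803, edgeR), and 2.87 to 2.98 for *Ighm* (adjusted p = 0.0998 to 0.121, edgeR). *Cd247* was the 1 member called without HFD-fed replicate 1, as lower (adjusted p = 0.0235, edgeR), against 659 of 20264 tested genes called lower in that fit. The other 2 HFD-fed mice were at 0 for it, at least 5.97-fold lower with those mice set to 3 counts in all. The pooled counts of *Ms4a1*, 115 on HFD and 1 on SCD, differed by 141-fold (95% counting interval 24.9 to 5633). Of the 36 genes, 5 were separated as higher (*Zap70*, *Ccr7*, *Ms4a1*, *Ighm* and *Cd52*), against 15.8% of detected genes. *Cd52* was at 3.72, 1.34 and 1.54 CPM on HFD against 0.991, 1.08 and 0.992 CPM on SCD (log2 fold change 1.11 ± 0.46 (SE), adjusted p = 0.112, edgeR). In CPM this separation did not need replicate 1, but without that mouse it rested on the TMM factors. HFD-fed replicates 2 and 3 had 32 and 50 reads of *Cd52* at factors of 0.695 and 0.823. The SCD-fed mice had 39, 41 and 26 reads at factors of 1.29, 1.30 and 1.08. DESeq2 called 4 members higher, *Ms4a1*, *Ighm*, *Pax5* and *Cd37*, against 5.01% of all genes. *Ptprc* overlapped between the diets, at 7.41, 4.70 and 4.50 CPM on HFD against 7.27, 5.08 and 5.15 CPM on SCD (log2 fold change -0.08, adjusted p = 0.860, edgeR). *Cxcl13* was the only called gene of the lymph-node stroma list (adjusted p = 0.0160, edgeR). It was listed at 0 in all 3 SCD-fed mice and at least 42.6-fold higher on HFD with that group set to 3 counts in all, most of it from replicate 1, while 24 of the 25 acinar genes were called higher in the same comparison.

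In the second table the question was whether islets of *Pax4* βiKO mice differ from those of controls on HFD. The 15 B-cell genes summed to 79.4 and 10.3 CPM in the 2 control mice and 7.90, 25.0 and 152 CPM in the 3 *Pax4* βiKO mice, and the T-cell genes to 6.29 and 4.23 CPM against 2.86, 10.1 and 12.7 CPM. Both sums overlapped between groups. Of the 36 genes, 7 were separated as higher (*Cd3e*, *Trbc2*, *Cd22*, *Fcer2a*, *Cxcr5*, *Cd52* and *Ptprc*) and none as lower, against 14.1% of 26679 detected genes. edgeR called none of the 24 tested members, against 0.0595% of the tested genes called higher, and 3 were higher at an unadjusted p below 0.05, against 6.23% of all tested genes. DESeq2 called none, against 0.261%, with 6 at an unadjusted p below 0.05, against 6.31% of all genes in either direction, and an adjusted p for only 8 of the 36. The median log2 fold change was 1.46, and 0.025 without *Pax4* βiKO replicate 3 (18 tested).

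*Pax4* βiKO replicate 3 was the highest of the 5 mice for 13 of the 15 B-cell genes, and control replicate 1 for *Igkc* and *Jchain*. *Ms4a1* was at 0.372 and 0.365 CPM in controls and 0.0347, 0.574 and 18.9 CPM in *Pax4* βiKO mice, *Cd79b* at 1.04 and 0.331 CPM against 0.312, 1.03 and 14.4 CPM, and *Cr2* at 0.409 and 0.365 CPM against 0.277, 0.484 and 17.6 CPM. In each, replicate 1 lay below both controls, with a single read of *Ms4a1*. *Cd22* was at 0.483 and 0.331 CPM against 0.763, 0.695 and 7.94 CPM, with no overlap but a small gap (log2 fold change 2.94 ± 1.19 (SE), adjusted p = 0.367, edgeR). *Bank1* was at 0.632 and 0.133 CPM against 0.0347, 0.726 and 8.15 CPM. *Igkc*, *Ighm* and *Jchain* were high in control replicate 1 too: *Igkc* was at 18.5 and 0 CPM against 0.867, 0 and 5.04 CPM (log2 fold change -2.22 ± 1.63 (SE), adjusted p = 0.609, edgeR), *Ighm* was at 41.2 and 6.27 CPM against 3.33, 13.2 and 48.0 CPM, and *Jchain* at 13.3 and 1.13 CPM against 1.25, 6.05 and 8.61 CPM. Control replicate 1 was above 2 of the 3 *Pax4* βiKO mice for *Ighm* and above all 3 for *Jchain*. With the replicate number as a block *Igkc* was called lower (log2 fold change -4.39, adjusted p = 0.00638, edgeR), against 0.193% of all tested genes, although its groups overlapped.

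The high values of most T-cell genes named here lay in *Pax4* βiKO replicates 2 and 3. *Trbc2* was at 0.126 and 0.0994 CPM in controls and 0.139, 1.34 and 0.461 CPM in *Pax4* βiKO mice (log2 fold change 2.58 ± 1.02 (SE), adjusted p = 0.358, edgeR), with a gap of 0.0123 CPM between the groups. *Cd8a*, the co-receptor of cytotoxic T cells, was at 0.186 and 0.0331 CPM against 0.0347, 0.816 and 0.153 CPM, so replicate 2 alone was above 0.2 CPM. *Cd4*, the co-receptor of helper T cells, was at 0.260 and 0.0994 CPM against 0.0347, 0.272 and 1.01 CPM, highest in replicate 3. *Lck* was at 1.19 and 0.630 CPM against 0.971, 1.09 and 2.51 CPM, *Cd2* at 0.409 and 0.166 CPM against 0.243, 0.786 and 1.56 CPM and *Cd247* at 2.34 and 0.982 CPM against 0.151, 1.00 and 1.41 CPM. All 3 overlapped, and *Cd247* was highest in control replicate 1. *Il7r*, the interleukin-7 receptor of naive and memory T cells, was at 0.595 and 0.696 CPM against 0.451, 0.816 and 0.950 CPM. Of the shared genes, *Ptprc* was at 13.4 and 11.6 CPM against 15.1, 17.5 and 41.4 CPM (log2 fold change 0.98 ± 0.41 (SE), adjusted p = 0.379, edgeR) and *Cd52* at 5.58 and 5.04 CPM against 5.82, 5.99 and 15.6 CPM, both separated, with replicate 3 far above the other mice. Macrophage genes summed to 180.0 and 164 CPM against 158, 176 and 230.5 CPM and acinar genes to 123190 and 27520 CPM against 96321, 19514 and 25764 CPM. The acinar sum was low in replicate 3, where most B-cell genes were highest, and the macrophage sum was highest there. Erythrocyte genes, 6 in number, were highest in replicate 3 as well, at 142 and 214 CPM in controls and 112, 159 and 530.2 CPM in *Pax4* βiKO mice, and the part of blood cells in the lymphocyte values was not tested. *Cxcl13* was at 0.818 and 0.232 CPM against 0.381, 0.363 and 9.20 CPM, highest in replicate 3, while *Ccl21a* was highest in replicate 2 (0.442 and 0.176 CPM against 0, 5.54 and 0.429 CPM).

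The B-cell genes did not all vary together between mice. The 5 antibody genes (*Ighm*, *Ighd*, *Igkc*, *Iglc2* and *Jchain*) were set against the 10 other B-cell genes as summed CPM. In SCD-fed wildtype mice the antibody sums were 16.6, 16.6 and 96.9 CPM and the other sums 34.3, 4.91 and 20.3 CPM, so the mouse with the highest antibody sum, replicate 3, was not the one with the highest sum of the others, replicate 1. In SCD-fed *Pax4* R192H mice the antibody sums were 11.7, 0.948 and 1.18 CPM and the others 0.737, 0.869 and 1.22 CPM. Replicate 1 of that group thus had an antibody sum near those of 2 wildtype mice while its other B-cell genes were at the level of its own group. Its antibody reads were mostly *Jchain* (7.98 CPM) and *Igkc* (2.69 CPM), with *Ighm* at 0.941 CPM. *Igha*, the heavy chain of IgA, was at 12.5 CPM in that mouse, the highest of the 12, and at 6.26 CPM in HFD-fed *Pax4* R192H replicate 1. In HFD-fed mice the antibody sums were 2.19, 0.785 and 2.08 CPM in wildtype and 26.0, 1.51 and 2.53 CPM in *Pax4* R192H, against 1.07, 1.06 and 3.62 CPM and 13.7, 0.629 and 0.463 CPM for the others. In the second table the antibody sums were 74.3 and 7.49 CPM in controls and 5.69, 20.0 and 70.8 CPM in *Pax4* βiKO mice, and the others 5.13 and 2.82 CPM and 2.22, 5.05 and 81.5 CPM. Control replicate 1 and *Pax4* βiKO replicate 3 had similar antibody sums, whereas their sums of the other B-cell genes differed, as given above. These sums were formed after the values were seen and were not tested.

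**Figure D4:**
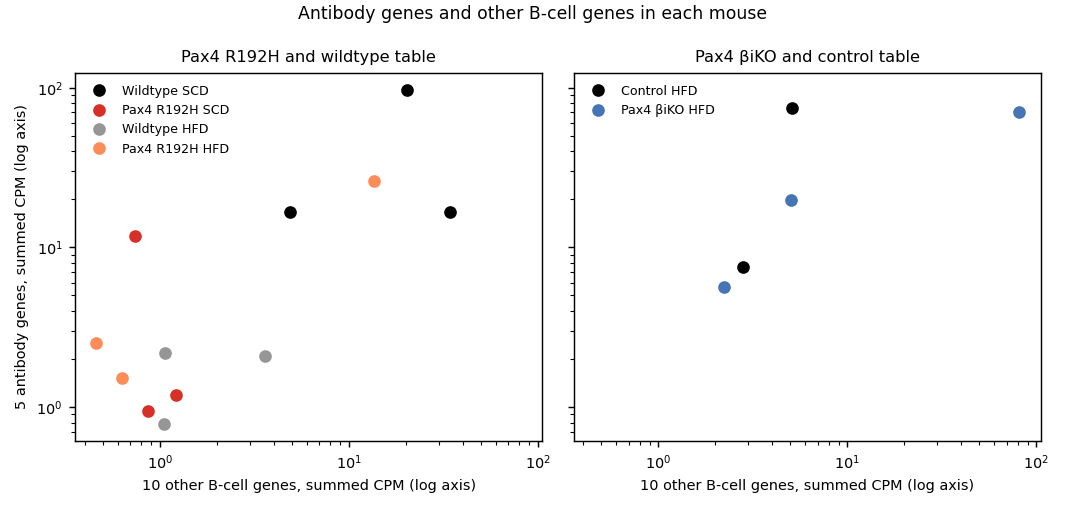
Summed CPM of the 5 antibody genes against that of the 10 other B-cell genes, 1 point per mouse on log axes, with the 2 tables normalized separately. SCD-fed *Pax4* R192H replicate 1 (11.7 CPM antibody, 0.737 CPM other) and control replicate 1 (74.3 and 5.13 CPM) lie on the antibody side.

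Leaving out each mouse in turn showed which differences rested on 1 animal. On SCD the median log2 fold change of the tested members ranged from -4.11 to -2.99 and the number of separated members from 20 to 26, against 6.87% to 8.88% of detected genes once a mouse was left out. In the wildtype diet comparison the median ranged from -3.95 to -2.92 and the number of separated members from 15 to 27, against 10.9% to 16.8% of detected genes. For *Pax4* R192H against wildtype on HFD the median ranged from -0.30 to 2.28, for diet in *Pax4* R192H mice from -0.90 to 2.76 and for *Pax4* βiKO against control from 0.025 to 2.65. The lowest value in each of these 3 was without HFD-fed *Pax4* R192H replicate 1 or, in the second table, without *Pax4* βiKO replicate 3.

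**Figure D5:**
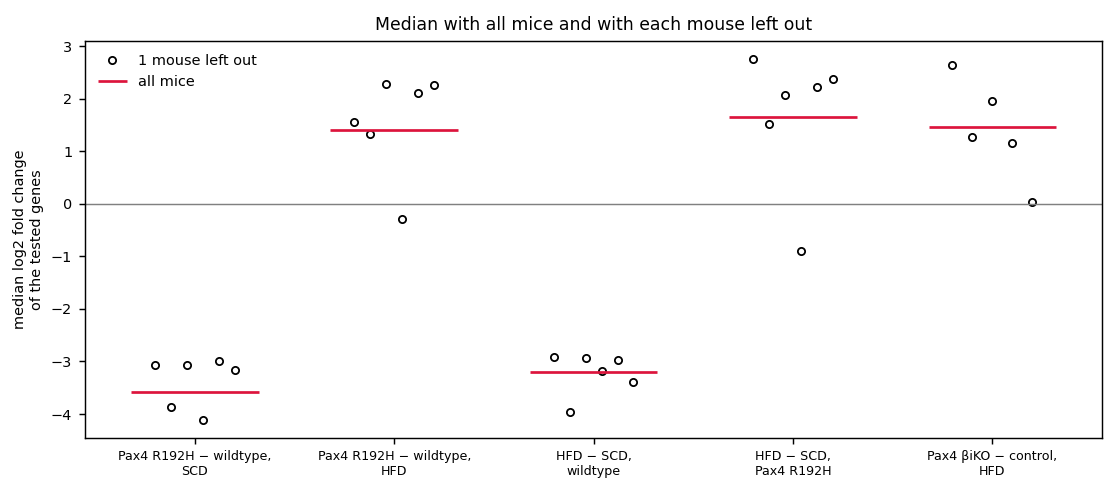
Median log2 fold change of the tested genes in 5 comparisons with all mice (red line) and with each mouse left out (open points). The medians of the SCD genotype comparison and the wildtype diet comparison stay below -2.9, while those of the other 3 fall to -0.30, -0.90 and 0.025 without 1 mouse.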

How the data were processed

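Members and gene lists were chosen with earlier results of these data known. Islet RNA was extracted with TRIzol and made into libraries with the TruSeq Stranded Total RNA kit. Per the labels and the study's methods, the authors mapped reads to mm10 using STAR (v2.7.1), quantified transcripts using RSEM (v1.3.3) and used tximport to obtain gene values. What was deposited is an expected count per gene and mouse, unscaled for depth. RSEM divides reads among near-identical genes. P-values measure the spread between these libraries, which may be in part technical.

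Here the expected counts were rounded, without tximport's length offsets. Identifiers were matched to symbols (65.8% and 66.7%), and unmatched ones were also tested. Genes were tested by quasi-likelihood in edgeR 4.0.16 (R 4.3.3) with TMM, filterByExpr (minimum count 10) and 1 coefficient per group, with calls as defined in the text. A bound against a group at 0 used 3 counts over that group. Coordinates and exon lengths came from GENCODE M21 on GRCm38. The test was checked on simulated counts, with changes planted only in genes at higher levels than most members. The planted changes were also smaller than many fitted here. The check therefore does not cover the low counts of most members.

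Values in every mouse were given for members that were called, members without overlap at an unadjusted p under 0.05 and the highest member of each role; other genes were named after their values were seen. The other lists were further T-cell and B-cell, plasma-cell, lymph-node stroma, NK, macrophage, dendritic-cell, neutrophil, acinar, β cell, α cell, endothelial and erythrocyte genes. Alternatives were RLE size factors, other filters, the replicate number as a block, only the groups compared in the model, DESeq2 (v1.42.0), leaving out the 2 most abundant genes, an acinar covariate, no fold threshold and leaving out each mouse. Counts of separated members and levels per kilobase without each mouse were added after the data were seen. Floors and intervals cover counting error alone, as no molecular identifiers were used.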

Additional observations from a re-analysis of the deposited data

How the results depend on the processing

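Of 134 pairs of a tested gene and a comparison, 54 changed sign in at least 1 alternative, and 1 of the called ones did: *Ighm* between HFD and SCD in *Pax4* R192H mice was -1.67 with the acinar covariate. RLE size factors and calls without a fold threshold changed no call. Without the filter on low counts, the members called were 17 on SCD, 8 on HFD, 17 for the interaction, 15 and 8 for diet in wildtype and *Pax4* R192H mice and 16 for *Pax4* βiKO (*Igkc* lower, the others higher), against 0.364%, 1.98%, 1.16%, 1.61%, 5.01% and 0.866% of all genes called in the direction named in the text, and the medians in the first 3 were -3.20, 0.87 and 4.27. This alternative keeps 36 members, many of them at 0 in whole groups. Its adjusted p-values are not reliable with so few mice. The lowest over all genes on SCD was 2.76e-200 (edgeR), against 0.319 with the filter. *Igkc*, whose SCD groups overlapped, was called lower there (adjusted p = 6.89e-07, edgeR). With at least 10 counts in every mouse, which keeps 3 members in the first table and 8 in the second, 2 were called for the interaction (*Ptprc* and *Ighm*), 2 for diet in wildtype and 1 for diet in *Pax4* R192H mice, against 0.447%, 0.548% and 12.4% of all genes called in the same directions, and the medians were -1.85, 0.57, 2.42, -1.93, 1.08 and 0.50 in the order above. DESeq2 called 3, 1, 9, 4 and 4 in the first 5 comparisons, with medians of 0.91 on HFD and 4.29 for the interaction. With only the groups compared in the model, 1, 0 and 1 were called on SCD and for diet in wildtype and *Pax4* R192H mice, against 0.00558%, 0.00568% and 11.8% of all genes, and the medians were -2.44 on SCD, 0.45 on HFD and 0.62 for diet in *Pax4* R192H mice. The acinar covariate gave 3 calls for diet in wildtype, *Ms4a1* and *Ighm* beside *Ptprc*, and 0 in *Pax4* R192H mice, against 0.157% of all genes lower and 0.105% higher (9.75% without it), with medians of -3.02 on SCD, -1.65 on HFD, 1.47 for the interaction and -1.44 for diet in *Pax4* R192H mice, the second and the last of which changed sign. Without the 2 most abundant genes *Ighm* was the 1 member called for the interaction, against 0.0993% of all genes called in that direction, and the median for diet in *Pax4* R192H mice was 2.13. The causes of these changes were not tested.

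Replicate numbers were shared across groups, but same-numbered mice did not consistently deviate together (correlations of -0.296 to 0.193 in the first table, 0.0729 and 0.0382 in the second). The numbers were not taken to pair the mice, although so few mice per group cannot exclude a pairing. With the replicate number as a block, 0 members were called for diet in *Pax4* R192H mice (median 1.01), against 8.01% of all genes called higher. For *Pax4* βiKO 1 was called, *Igkc* (log2 fold change -4.39, adjusted p = 0.00638, edgeR, with a median of 0.0845), against 0.193% of all genes called lower. The counts of the other comparisons did not change. A mouse was not always most like its own number.

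Leaving out each mouse gave 0 member calls on SCD and on HFD, 0 without any 1 *Pax4* βiKO mouse, 0 to 3 for the interaction, and 0 to 2 and 0 to 2 for diet in wildtype and *Pax4* R192H mice. Of 19706 to 20362 tested genes in these fits, none was called on SCD. On HFD 61 to 288 were called higher, for *Pax4* βiKO 3 to 16 and for the interaction 0 to 67. For diet 0 to 89 were called lower in wildtype and 1169 to 1520 higher in *Pax4* R192H mice. The medians of the tested members ranged from -4.11 to -2.99 on SCD, from -0.30 to 2.28 on HFD, from 1.69 to 6.16 for the interaction, from -3.95 to -2.92 and from -0.90 to 2.76 for diet, and from 0.025 to 2.65 for *Pax4* βiKO. The separated members numbered 20 to 26 on SCD, 1 to 6 on HFD, 15 to 27 and 5 to 9 for diet and 7 to 21 for *Pax4* βiKO, against 6.87% to 8.88%, 13.7% to 15.4%, 10.9% to 16.8%, 18.8% to 20.4% and 19.8% to 28.1% of detected genes. *Ptprc* in wildtype mice lost its call without HFD-fed wildtype replicate 3, at a log2 fold change of -1.93. *Ms4a1* and *Ighm* in *Pax4* R192H mice lost theirs without HFD-fed replicate 1 or any 1 SCD-fed mouse. Without SCD-fed wildtype replicate 2, *Ms4a1*, *Ptprc* and *Ighm* were called for the interaction (adjusted p = 0.0468, 0.0361 and 0.0361, edgeR), against 38 of 19999 tested genes called in that direction. Where both groups held under 3 counts per mouse, a difference was not detectable at this depth.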

Other observations

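Plasma cells, the antibody-secreting end stage of B cells, were read from 14 genes. None was called between genotypes on SCD. *Derl3* and *Fkbp11*, which act in protein folding and degradation in the endoplasmic reticulum and are also expressed by acinar cells, were called higher in HFD-fed *Pax4* R192H than in HFD-fed wildtype mice (log2 fold change 1.89, adjusted p = 0.00329 and 1.42, adjusted p = 0.00429, edgeR) and in HFD-fed than in SCD-fed *Pax4* R192H mice (2.72, adjusted p = 8.81e-05 and 1.90, adjusted p = 1.45e-04, edgeR). *Mzb1*, a chaperone of antibody assembly, was at 0.895, 0 and 0.0308 CPM in *Pax4* R192H and 0.112, 0 and 0.130 CPM in wildtype mice on HFD, with 1 *Pax4* R192H mouse above the other 5. Acinar genes were called higher in 7 of 25 in the first of these comparisons and 24 of 25 in the second, and their part in the *Derl3* and *Fkbp11* values was not tested. Of all tested genes, 1.46% were called higher in the first comparison and 9.75% in the second.

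Other leukocyte lists were small or sparse. Of 12 NK and cytotoxic genes, 2 were lower in every SCD-fed *Pax4* R192H than in every wildtype mouse, as were 2 of 9 dendritic-cell genes and 3 of 8 neutrophil genes, against 4.06% of detected genes, with none called in any of the 6 comparisons. NK and cytotoxic genes summed to 1.82, 1.84 and 2.08 CPM in SCD-fed wildtype mice and 1.55, 0.579 and 1.49 CPM in SCD-fed *Pax4* R192H mice, which did not overlap. Neutrophil genes summed to 3.00, 0.751 and 0.893 CPM against 0.585, 0.290 and 0.115 CPM, and dendritic-cell genes to 10.3, 8.45 and 8.45 CPM against 7.80, 5.98 and 6.45 CPM. None of the 8 endothelial and none of the 6 erythrocyte genes was separated in that comparison, and erythrocyte genes summed to 183, 38.7 and 24.4 CPM in SCD-fed wildtype mice and 27.4, 23.4 and 39.4 CPM in SCD-fed *Pax4* R192H mice. Of the 14 β cell genes, 3 were called lower in HFD-fed *Pax4* R192H than in HFD-fed wildtype mice, against 0.82% of all tested genes, of which *Trpm5* moved most (log2 fold change -1.65, adjusted p = 0.00530, edgeR), and 1, again *Trpm5*, in *Pax4* βiKO mice (-1.14, adjusted p = 0.00732, edgeR), against 0.0298%. Of the 8 α cell genes, 2 were called higher in HFD-fed *Pax4* R192H than in HFD-fed wildtype mice, *Gc* and *Ttr*, against 1.46% of all tested genes, and the same 2 in HFD-fed against SCD-fed *Pax4* R192H mice. In that last comparison 3 β cell genes were also called higher (*Ins1*, *Ins2* and *Iapp*) and 3 lower (*Trpm5*, *Slc30a8* and *Slc2a2*), as were *Plvap* of the endothelial and *Hba-a2* of the erythrocyte genes, both higher, against 9.75% of all tested genes called higher and 5.91% called lower.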
